A study of Mus musculus with 2 samples.

Results

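The genes described here are 10 members of the systems that cut the extracellular matrix and hold that cutting in check: the matrix metalloproteinases Mmp2, Mmp3, Mmp8, Mmp9, Mmp12 and Mmp14, the disintegrin metalloproteinases with thrombospondin motifs Adamts1 and Adamts4, and the tissue inhibitors of metalloproteinases Timp2 and Timp3. They were found by gene symbol among the 32285 genes of 2 single-cell libraries, and all 10 were present in both. The libraries came from brains of C57BL mice aged 8 to 13 weeks, in samples labelled NMO and 24h, from a model of neuromyelitis optica spectrum disorder, an astrocyte disease in which antibodies bind the water channel aquaporin-4. After digestion of the tissue with enzymes at 37 °C, one library held cells without the leukocyte surface protein CD45 and the other held cells carrying it, and each group is 1 library. The labels do not state how the model was induced, how CD45 separated the cells, how many mice were used or whether they were pooled, and no library from untreated mice was analysed here.

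Matrix metalloproteinases are zinc enzymes that are made as inactive proforms and cut collagens, laminins, proteoglycans and also cytokines. Mmp14 is anchored in the membrane and activates proMmp2 in a complex with Timp2, while the Adamts proteases cut lectican proteoglycans such as versican and brevican, which fill the matrix around neurons. Tissue inhibitors of metalloproteinases block the active site of these enzymes, and Timp3, unlike the other Timps, stays bound to the matrix and also blocks Adamts enzymes.

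The CD45-negative library held 92691820 UMIs (unique molecular identifiers, each marking 1 captured transcript) in 14524 cell barcodes, and the CD45-positive library 76182401 UMIs in 8662 barcodes. Of these, 12817 and 8432 barcodes were kept, with medians of 5412 and 6088.5 UMIs. Clusters were named from marker genes after every member and every related gene had been removed from the clustering genes. A level (CPM) is a gene's summed UMIs per 1000000 UMIs of the named cells, with an exact 95% Poisson interval. With 1 library per group there is no replicate check and no test was made. The intervals cover counting error only, and UMIs crowded into single cells make them too narrow. In the CD45-positive library 1283 cells stayed unnamed, and the neutrophil-like cells there also carried microglia markers, summed at 11525 CPM against 23740 CPM in microglia-like cells, so each value for neutrophil-like cells stands beside that measurement. The 174 CD45-negative fibroblast-like cells held all 17 UMIs of Elane in that library, which lay in 3 cells, and 10 of its 11 UMIs of Ctsg. Both genes code for neutrophil proteases. The 15 CD45-positive fibroblast-like cells held 2769 UMIs of the neutrophil gene S100a8. Whether other cells are mixed into this class was not tested, and each value for fibroblast-like cells carries that limit. Barcodes shared by both libraries numbered 27.

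Taken over whole libraries, 4 members were at least 2-fold higher among CD45-positive cells, against 16.5% of the 18379 genes measured, and 4 were at least 2-fold higher among CD45-negative cells, against 40.9%. Mmp2, Mmp8, Mmp9 and Timp2 were on the CD45-positive side. Mmp3, Mmp12, Adamts4 and Timp3 were on the CD45-negative side, and Mmp14 and Adamts1 lay within 2-fold. The median log2 ratio (CD45-positive over CD45-negative) was -0.27 for the members and -0.58 for all genes measured. The main clustering also gave the share of each member's UMIs held by each class, which depends on how many cells of that class were captured. Mmp14 and Timp2, though found in many classes, are in both of the counts that follow. In the CD45-negative library 7 of 10 members had at least 50% of their UMIs in a single named class, against 41.5% of genes. That count was 4 with each library clustered alone, a setting for which the share over all genes was not recomputed. In the CD45-positive library 8 members had such a class, against 61.3% of genes, and Mmp3, with 9 UMIs, was too low to be counted there. One of the 8, Mmp12, had 50.9% of its UMIs in microglia-like cells, on 54 UMIs in 10 cells. That share was 27.4% with no cell filter, 31.1% with doublets kept and 26.4% with each library clustered alone, and the count of 8 became 6, 7 and 7.

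**Figure D1:**
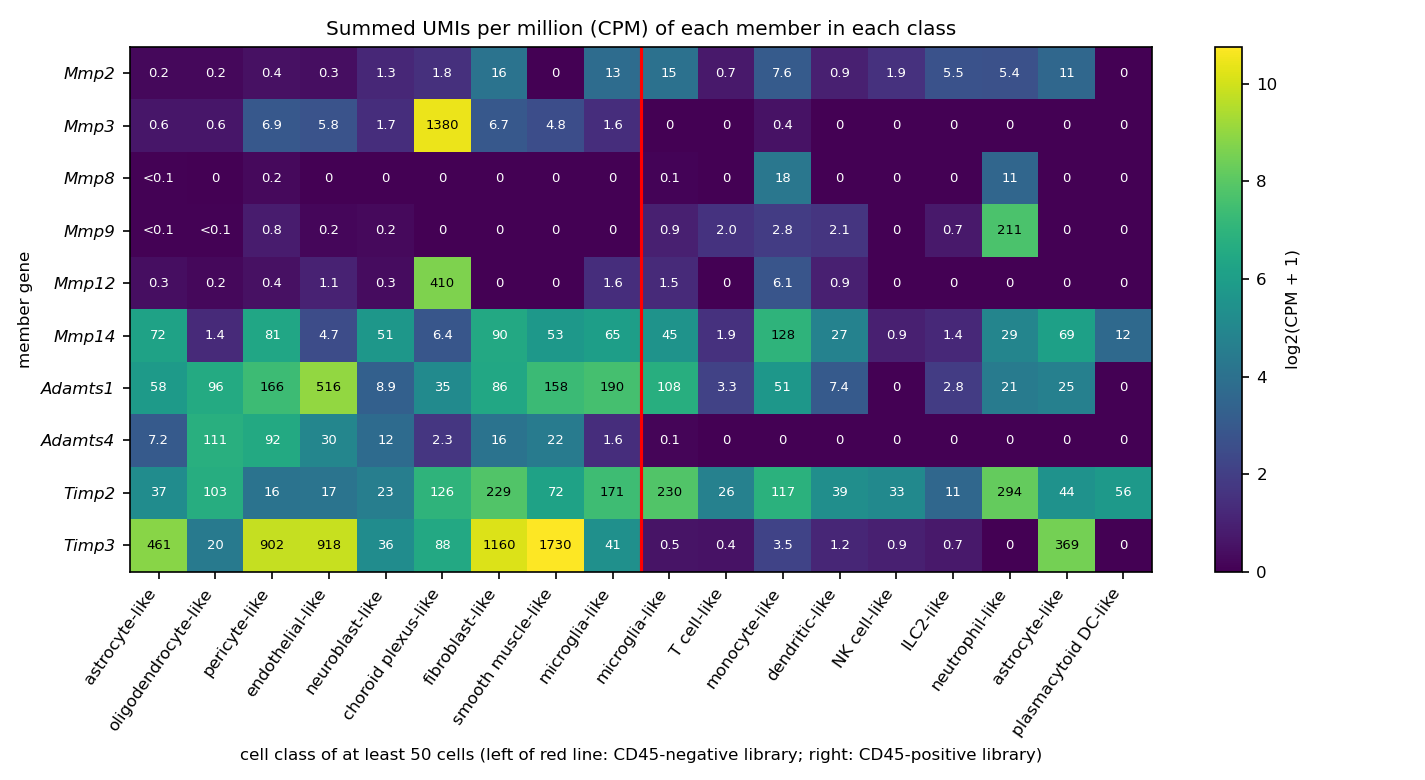
Level of each member gene (rows) in each cell class of at least 50 cells (columns), as CPM; the colour is log2(CPM + 1), and the red line separates the CD45-negative library (left) from the CD45-positive library (right). Mmp3 (1380 CPM) and Mmp12 (410 CPM) stand out in choroid plexus-like cells, Mmp9 (211 CPM) in neutrophil-like cells, and Timp3 is brightest in the smooth muscle-like, fibroblast-like, endothelial-like and pericyte-like columns.

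Mmp3 (stromelysin-1, which cuts proteoglycans and laminin and activates other proMmps; chr9:7445822-7455975, plus strand) and Mmp12 (macrophage elastase; chr9:7344381-7369499, plus strand) had their highest level in the same class. All positions are from GENCODE M21 on GRCm38. The CD45-negative library held 3148 UMIs of Mmp3 and the CD45-positive library 9, a 313-fold higher CPM among CD45-negative cells (interval 165 to 686). Mmp12 had 923 and 106 UMIs, 7.80-fold higher among CD45-negative cells (6.37 to 9.63). Epithelial-like cells of the choroid plexus, the tissue that secretes cerebrospinal fluid, were 212 of the CD45-negative cells, and they held 95.8% of that library's Mmp3 UMIs and 97.1% of its Mmp12 UMIs.

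In choroid plexus-like cells Mmp3 stood at 1380 CPM (1331 to 1430), and the next class, pericyte-like cells, stood at 6.88 CPM, with intervals that did not overlap. Of the choroid plexus-like cells 53.8% had an Mmp3 UMI, and 39.8% did after every cell had been thinned to 1000 UMIs. Neuroblast-like cells, taken as the class that should mostly lack the members, had an Mmp3 UMI in 0.773% of cells and in 0% after thinning, with a median of 7743.5 UMIs per cell against 8981.5 in choroid plexus-like cells. Mmp12 stood at 410 CPM (383 to 438) in choroid plexus-like cells, with a UMI in 31.1% of them and in 16.8% after thinning. The second class for Mmp12 was monocyte-like cells at 6.05 CPM, where 60.7% of the 28 UMIs came from 1 cell. Of the low Mmp3 counts elsewhere, 81.6% of the 38 UMIs of endothelial-like cells (5.79 CPM) and 61.1% of the 36 UMIs of pericyte-like cells came from 1 cell each, while the 17 UMIs of astrocyte-like cells lay in 17 cells.

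The genes sit in one cluster of metalloproteinase genes on chromosome 9, in the order Mmp13, Mmp12, Mmp1b, Mmp3, Mmp10, Mmp8 and Mmp27. Of the neighbours, Mmp1b and Mmp10 had 0 UMIs in both libraries, Mmp13 had 18 and 6 (CD45-negative and CD45-positive) and Mmp27 had 0 and 3. The bases before the starts of Mmp3 and Mmp12 are printed because these neighbours were the members highest in the same cells. Each line gives the 200 bases before a start site in RefSeq (GRCm38.p6), read 5′ to 3′ on the plus strand. Capitals mark a match to the AP-1 motif (TGACTCA or TGAGTCA, which covers both strands) or to the TATA box (TATAAA, either strand). The windows are chr9:7445622-7445821 for Mmp3, chr9:7344197-7344396 for the first start of Mmp12 and chr9:7347174-7347373 for its second start.
Mmp3: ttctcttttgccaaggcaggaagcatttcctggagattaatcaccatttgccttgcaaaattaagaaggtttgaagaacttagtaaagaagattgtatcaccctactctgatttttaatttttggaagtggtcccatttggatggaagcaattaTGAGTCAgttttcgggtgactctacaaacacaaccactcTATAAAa
Mmp12, first start: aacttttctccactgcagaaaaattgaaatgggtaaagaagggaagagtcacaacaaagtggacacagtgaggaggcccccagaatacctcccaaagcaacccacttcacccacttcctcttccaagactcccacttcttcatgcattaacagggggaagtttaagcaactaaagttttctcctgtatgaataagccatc
Mmp12, second start: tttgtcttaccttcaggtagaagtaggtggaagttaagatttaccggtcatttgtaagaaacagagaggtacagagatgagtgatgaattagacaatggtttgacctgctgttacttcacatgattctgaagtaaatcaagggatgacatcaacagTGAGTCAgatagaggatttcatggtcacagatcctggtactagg
The AP-1 match begins 46 bases before the Mmp3 start and 44 bases before the second Mmp12 start, and the Mmp3 window has a TATA match 7 bases before its start. Over the same length, 3.66% of 32851 RefSeq promoters held the AP-1 letters and 9.96% the TATA letters. The first Mmp12 start has neither, but has 1 match to the NF-kB motif, which 4.10% of promoters held. These matches describe letters and show no binding.

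Within the choroid plexus-like class both genes differed widely between clusters. Cluster 45 (50 cells, led by Ttr, Cxcl5, Ecrg4, Esm1 and Slpi, with a median of 11901.5 UMIs) had 3307 CPM of Mmp3 (3167 to 3451). Cluster 52 (23 cells) had 945 CPM, cluster 39 (72 cells) had 804 CPM (738 to 874) and cluster 41 (67 cells, median 9447 UMIs) had 207 CPM (172 to 246). The intervals of cluster 45 overlapped no other. Mmp12 stood at 996 CPM (920 to 1077) in cluster 45, 338 CPM (296 to 385) in cluster 39, 87.7 CPM in cluster 52 and 14.6 CPM (9 UMIs) in cluster 41. Cluster 45 thus exceeded cluster 41 by 16-fold for Mmp3 (13.4 to 19.3) and by 68.0-fold for Mmp12 (35.6 to 149), where 8.57% of 5754 genes were at least 2-fold higher. No measured member was at least 2-fold lower there, as 10.4% of genes were. In cluster 45, 96% of cells had an Mmp3 UMI (87.8% after thinning) and 80% an Mmp12 UMI (46.9% after thinning).

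The inhibitors lay within 2-fold between clusters 45 and 41. Timp2 stood at 102, 162 and 114 CPM in clusters 45, 39 and 41, a ratio of 0.898 for cluster 45 over 41 (0.631 to 1.28). Timp3 stood at 86.6, 143 and 45.6 CPM, higher in cluster 45 than in 41 by 1.90-fold (1.18 to 3.11). Other genes that differed along these clusters were Lcn2, an iron-carrier protein that binds Mmp9, at 3061, 1106 and 177 CPM in clusters 45, 39 and 41, and Slpi, a protease inhibitor, at 1895, 220 and 87.9 CPM. The epithelial marker Ttr stood at 123797, 202638 and 83450 CPM, so the order of Mmp3 was not the order of Ttr. Median mitochondrial shares were 1.03%, 3.76% and 0.52%, and the part of cell quality in the cluster differences was not tested.

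**Figure D2:**
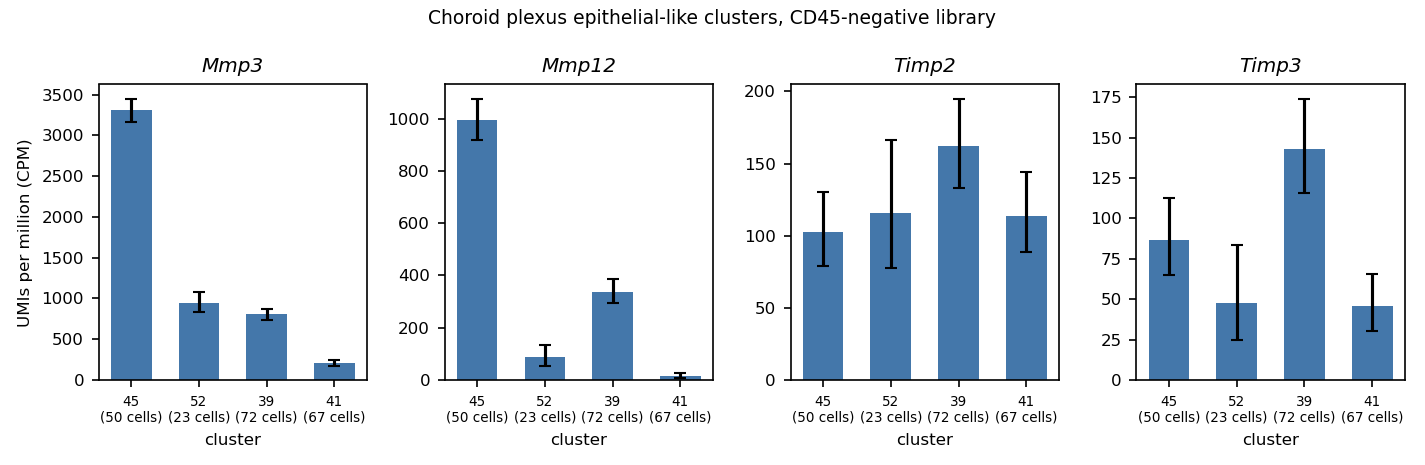
Level of Mmp3, Mmp12, Timp2 and Timp3 (CPM, separate linear axes from 0) in the 4 choroid plexus epithelial-like clusters of the CD45-negative library, with exact 95% Poisson intervals as error bars and the number of cells under each cluster. Mmp3 falls from 3307 CPM in cluster 45 to 207 CPM in cluster 41 and Mmp12 from 996 to 14.6 CPM, while Timp2 stays between 102 and 162 CPM.

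The 2 proteases were found in the same cells. Of 212 choroid plexus-like cells, 64 had UMIs of both, 50 of Mmp3 alone and 2 of Mmp12 alone, so that 97.0% of Mmp12-positive cells also had Mmp3. Median depth was 9992.5 UMIs in cells with both, 10888.5 with Mmp3 alone, 11505.5 with Mmp12 alone and 7013 with neither. Counts were uneven from cell to cell: 1 cell held up to 197 Mmp3 UMIs, and 17 cells held 50% of all Mmp3 UMIs of the class. For Mmp12 the highest cell had 110 UMIs, and 9 cells held 50%. Per 1000 UMIs of Ttr, whose transcripts also appeared in other classes, there were 10.1 Mmp3 UMIs in choroid plexus-like, 2.98 in astrocyte-like, 3.57 in oligodendrocyte-like and 18.1 in pericyte-like cells. The pericyte-like value rests on 36 Mmp3 UMIs, of which 22 came from 1 cell, and the part of stray choroid plexus transcripts in these low counts was not tested.

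Mmp9 (gelatinase B, which cuts denatured collagens and type IV collagen; chr2:164940780-164955850, plus strand) and Mmp8 (neutrophil collagenase, which cuts fibrillar collagens; chr9:7558456-7568485, plus strand) are proteases known from neutrophils, and both were higher among CD45-positive cells. Mmp9 had 85 UMIs among CD45-negative and 623 among CD45-positive cells, 8.18-fold higher CPM among CD45-positive cells (6.52 to 10.4). Mmp8 had 55 and 154 UMIs, 3.13-fold higher (2.28 to 4.33). Both are stored in granules of neutrophils, and their transcripts are made at different stages of neutrophil maturation.

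In the CD45-positive library Mmp9 stood at 211 CPM (174 to 252) in the 111 neutrophil-like cells, with a UMI in 31.5% of cells (17.4% after thinning). Their median depth was 3616 UMIs. The next class, monocyte-like cells, had 2.81 CPM (13 UMIs), and T cell-like cells, the class that should lack it, had 2.00 CPM, with a UMI in 0.784% of cells (0.306% after thinning) and a median depth of 4656.5 UMIs. The level in neutrophil-like cells rested on the clustering: it was 79.7 CPM with no cell filter, 102 CPM with a stricter filter, 99.7 CPM at a finer clustering and 60.9 CPM with each library clustered alone. Of the CD45-positive Mmp9 UMIs 18.9% lay in neutrophil-like cells and 63.4% in unnamed clusters. With each library clustered alone the neutrophil-like share was 72.9%. Unnamed cluster 32 (82 cells, led by S100a9, S100a8, Cxcr2 and Cxcl2) held 206 of the UMIs at 109 CPM (94.4 to 125). It carried the neutrophil list at 7246 CPM and the microglia list at 22626 CPM, and whether its barcodes hold more than 1 cell was not tested.

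The neutrophil-like cells fell into a pair of clusters. Cluster 43 (39 cells, below the 50 cells required elsewhere; led by S100a9, Retnlg and S100a8) had 473 CPM of Mmp9 (389 to 571) and a UMI in 71.8% of cells. Cluster 37 (72 cells, led by Il1f9, Slpi, Ccrl2 and Clec4d) had 24.4 CPM (8 UMIs). All 4 of these leading genes also lead cluster 35, which was named microglia-like, and whether clusters 43 and 37 hold the same cell type was not tested. The difference was 19.4-fold (9.52 to 46.1), where 7.58% of 3894 genes were at least 2-fold higher. The summed neutrophil markers were 27343 CPM in cluster 43 and 7285 CPM in cluster 37, and the microglia markers 13532 and 10104 CPM. Timp2, the other member measured in both, stood at 207 and 357 CPM, short of a 2-fold difference, where 11% of genes were at least 2-fold lower.

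Mmp8 did not share this pattern. In the CD45-positive library it stood at 18.4 CPM (14.7 to 22.7) in monocyte-like cells and 10.7 CPM (6 UMIs) in neutrophil-like cells, whose intervals overlapped, and 55.2% of its UMIs lay in the 315 monocyte-like cells. Of monocyte-like cells 12.1% had an Mmp8 UMI and 1.95% after thinning, and T cell-like cells had 0. The 85 monocyte-like UMIs lay in 38 cells with a median of 2 and at most 8 each, and 9 cells held 50% of them. Monocyte cluster 25 (141 cells, led by Chil3, Lyz2 and Arg1) had 45.8 CPM (35.3 to 58.4) and cluster 26 (125 cells, the same leading genes) had 3.38 CPM (8 UMIs), 13.5-fold apart (6.48 to 32.7), where 6.15% of 9301 genes were at least 2-fold higher. Adamts1 (0 UMIs in cluster 25, where 3 UMIs would be 2.11 CPM, and 156 UMIs or 66.0 CPM in cluster 26), Timp2 (52.8 and 161 CPM) and Mmp2 (1.41 and 13.1 CPM, on 2 and 31 UMIs) were at least 2-fold lower in cluster 25, where 24.1% of genes were. The microglia markers summed to 2764 and 17981 CPM in these clusters. With no cell filter the monocyte clusters were 2.06-fold apart and at a finer clustering 3.27-fold. In cluster 25 the summed neutrophil markers were 463 CPM with Ly6g at 0, and S100a8 was 272 CPM against 63.5 CPM in cluster 26. Per 1000 S100a8 UMIs there were 153 Mmp8 UMIs in monocyte-like and 1.55 in neutrophil-like cells of that library.

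The CD45-negative library also held 17 neutrophil-like cells, fewer than the minimum of 50. They had 44 Mmp8 UMIs in 6 cells, 312 CPM (227 to 419), of which 52.3% came from 1 cell. Mmp9 had 59 UMIs in 11 of the 17 cells, 419 CPM (319 to 540). Against the CD45-positive neutrophil-like cells Mmp8 was 29.2-fold higher (12.4 to 83.8) and Mmp9 1.99-fold higher (1.43 to 2.74). Neutrophil genes also differed between these groups of cells: S100a8 was 3.67-fold, S100a9 6.58-fold and Retnlg 38.4-fold higher in the CD45-negative cells. Ngp, a secondary granule gene, had 11 UMIs there, all in 1 cell, and 0 in the CD45-positive cells. For the granule genes Ltf (3 and 5 UMIs, 2.39-fold, 0.371 to 12.3) and Camp (2 and 1 UMIs, 7.96-fold, 0.414 to 470) the counts did not resolve a difference. The summed neutrophil markers came to 77104 CPM for the former and 15601 CPM for the latter, and their part in the Mmp8 difference was not tested.

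**Figure D3:**
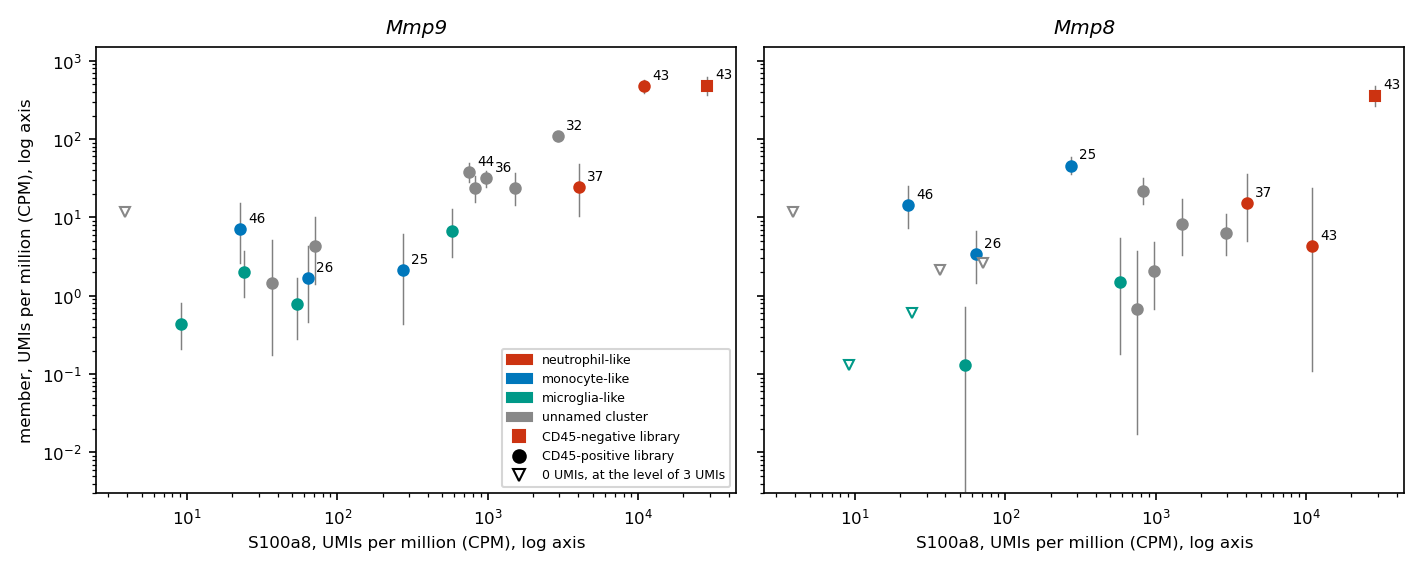
Level of Mmp9 (left) and Mmp8 (right) against the level of the neutrophil gene S100a8 in clusters of neutrophil-like, monocyte-like, microglia-like and unnamed cells, both on log axes in CPM; each point is 1 cluster of at least 15 cells, bars are exact 95% Poisson intervals, squares are CD45-negative cells, and open triangles mark 0 UMIs drawn at the level of 3 UMIs. Among CD45-positive clusters Mmp9 is highest in cluster 43 (473 CPM), whereas for Mmp8 monocyte cluster 25 (45.8 CPM) lies above both CD45-positive neutrophil-like clusters.

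Mmp2 (gelatinase A; chr8:92827291-92853420, plus strand) was the weakest of the widely found members. It had 57 UMIs among CD45-negative and 759 among CD45-positive cells, 14.9-fold higher CPM among CD45-positive cells (11.4 to 19.8). Microglia-like cells of the CD45-positive library, the resident macrophages of the brain, held 73.4% of them at 15 CPM (13.8 to 16.3). Mmp2 was detected in 14.1% of them (1.32% after thinning), near the level of 1 UMI, against 0.668 CPM in T cell-like cells. Fibroblast-like cells had 16.2 CPM on 12 UMIs and the 71 CD45-negative microglia-like cells 13.0 CPM on 8 UMIs, so the order of these 3 could not be told. The fibroblast-like value was 26.0 CPM with no cell filter, 29.0 CPM with the stricter filter, 30.4 CPM with doublets kept and 28.3 CPM with each library clustered alone. The UMIs were spread over many cells, with at most 5 in 1 microglia-like cell.

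Mmp14 (the membrane-anchored MT1-MMP; chr14:54431612-54445364, plus strand) was the most evenly spread protease. The CD45-negative cells had 3313 UMIs of it and the CD45-positive cells 3171, 40.1 and 42.9 CPM, a ratio of 1.07 (1.02 to 1.12). Monocyte-like cells were highest at 128 CPM (117 to 138), with a UMI in 57.1% of cells and in 14.7% after thinning. Fibroblast-like (90.2 CPM), pericyte-like (81.1 CPM), astrocyte-like (72.0 CPM), CD45-positive astrocyte-like (69.3 CPM) and CD45-negative microglia-like cells (65.1 CPM) followed, each with an interval that overlapped its neighbour's. Neuroblast-like cells had 51.1 CPM, so for Mmp14 they are no background class. Oligodendrocyte-like (1.40 CPM), T cell-like (1.85 CPM) and endothelial-like cells (4.72 CPM) were lowest of the classes of over 1000 cells.

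Because astrocyte-like cells were numerous, they held 63.1% of the CD45-negative Mmp14 UMIs, and microglia-like cells held 52.6% of the CD45-positive ones. Of the proMmp2 complex, Mmp14, Timp2 and Mmp2 were all found in CD45-positive microglia-like cells, whereas CD45-negative astrocyte-like cells had 5 Mmp2 UMIs. In the same order, monocyte-like cells had 128, 117 and 7.57 CPM (35 Mmp2 UMIs). Fibroblast-like cells had 90.2, 229 and 16.2 CPM (12 Mmp2 UMIs), and CD45-negative microglia-like cells 65.1, 171 and 13.0 CPM (8 Mmp2 UMIs). The presence of all of them was thus not particular to CD45-positive microglia-like cells. In CD45-positive microglia-like cells, 87.5% of cells with an Mmp14 UMI had a Timp2 UMI, against 71.2% of cells without, and median depth was 16529 UMIs with both and 6752 with Mmp14 alone. In CD45-negative astrocyte-like cells, 19.7% of cells with Mmp14 had Timp2, against 14.0% without. Timp3 was found there in 86.0% of cells with Mmp14, against 68.7% without, and cells with both had a median of 6905 UMIs against 4831 with Mmp14 alone. Depth moves such joint detection, and its part was not tested.

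Adamts1 (chr16:85793827-85803113, minus strand), a protease that cuts versican and aggrecan, had 8965 UMIs among CD45-negative and 5155 among CD45-positive cells, 109 and 69.7 CPM, 1.56-fold higher among CD45-negative cells (1.5 to 1.61). Endothelial-like cells were highest at 516 CPM (499 to 534), with a UMI in 45.1% of cells and in 23.6% after thinning. Neuroblast-like cells had 8.90 CPM, in 4.98% of cells and in 0.704% after thinning, and T cell-like cells 3.34 CPM. CD45-negative microglia-like (190 CPM), pericyte-like (166 CPM) and smooth muscle-like cells (158 CPM) overlapped in their intervals. Of these, the 117 microglia-like UMIs lay in 11 of 71 cells, and 3 cells held 50% of them. The 66 smooth muscle-like UMIs lay in 16 of 88 cells, and 4 cells held 50%. CD45-positive microglia-like cells had 108 CPM (104 to 111), oligodendrocyte-like cells 95.6 CPM and astrocyte-like cells 57.8 CPM.

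The microglia-like level was carried by one cluster. Cluster 19 (273 cells, led by Tnf, Atf3, Ccl4 and Egr1) had 521 CPM of Adamts1 (501 to 541), with a UMI in 68.5% of cells and in 35.5% after thinning. Cluster 2 (1793 cells, led by the homeostatic genes Cx3cr1, Gpr34 and P2ry12) had 53.3 CPM and cluster 9 (1000 cells, led by Saa3 and Ccl12) had 16.1 CPM. The level in cluster 19 was 9.77-fold that in cluster 2 (9.13 to 10.5), where 2.68% of 12189 genes were at least 2-fold higher. Mmp9 (2.01 and 0.434 CPM, on 10 UMIs each) and Mmp12 (4.01 and 0.304 CPM, with all 20 UMIs of cluster 19 in 1 cell) were also at least 2-fold higher, on few counts. No measured member was at least 2-fold lower, as 3.33% of genes were: Mmp14 stood at 58.0 and 47.8 CPM in clusters 19 and 2, Timp2 at 247 and 229 CPM and Mmp2 at 19.3 and 16.5 CPM. Cluster 9 against cluster 2 was lower by at least 2-fold in Adamts1 (3.31-fold, 2.75 to 4.01) and Mmp2 (2.17-fold, 1.65 to 2.90), where 37% of 12153 genes were. It was at least 2-fold higher in Mmp12 (27 and 7 UMIs), where 1.09% of genes were. The 27 UMIs of cluster 9 lay in 4 cells, with 22 of them in 1 cell. Cluster 19 also carried immediate early genes, which tissue digestion at warm temperature is known to induce. Egr1 stood at 819 against 23.2 CPM, Atf3 at 739 against 26.3 CPM and Fos at 942 against 35.2 CPM, and median depth was 15594 against 10360 UMIs. The part of the digestion in the Adamts1 level was not tested.

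Adamts4 (chr1:171250421-171260637, plus strand), which cuts aggrecan and brevican, was nearly limited to the CD45-negative library, with 3974 UMIs against 30, a 119-fold higher CPM (83.0 to 176). Oligodendrocyte-like cells, the myelinating cells, had 111 CPM (107 to 115) and held 73.9% of the UMIs. A UMI was found in 53.2% of them (10.5% after thinning), with a median depth of 8988 UMIs, against 8.08% and 0.967% of neuroblast-like cells. Pericyte-like cells followed at 92.1 CPM (84.1 to 101) and endothelial-like cells at 29.6 CPM, and the intervals of these 3 classes did not overlap one another. The 3 oligodendrocyte-like clusters stood within 2-fold of one another in Adamts4, with 134, 113 and 94.8 CPM in clusters 10, 5 and 14. No measured member was at least 2-fold apart between clusters 10 and 5, where 11% of 12163 genes were higher in cluster 10 and 8.44% lower. The 30 CD45-positive UMIs included 22 in 38 oligodendrocyte-like cells of that library, at 80.5 CPM (50.4 to 122).

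Both Adamts genes differed together among pericyte-like cells, the mural cells of capillaries. Cluster 18 (278 cells, led by Ccl11, Nts, Dcn and Cxcl1, of which Dcn is also a fibroblast marker) had 426 CPM of Adamts1 (393 to 461) and 254 CPM of Adamts4 (229 to 281). Cluster 16 (414 cells, led by Vtn, Rgs5 and Higd1b) had 52.7 and 20.1 CPM. The folds were 8.08 (6.48 to 10.2) and 12.7 (8.94 to 18.5), where 7.72% of 10220 genes were at least 2-fold higher. Timp2 was higher too, at 20.8 against 7.45 CPM, and no measured member was at least 2-fold lower, as 5.72% of genes were. Timp3 stood at 794 and 873 CPM in these clusters, while Timp1, the secreted inhibitor induced in inflammation, stood at 467 and 2.87 CPM. The cytokine Il6 stood at 562 and 1.15 CPM, Egr1 at 357 and 83.1 CPM and Fos at 54.8 and 6.31 CPM. The part of the digestion in the Adamts1 and Adamts4 differences was not tested.

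This split of the pericyte-like cells depended on the clustering. The highest over the lowest pericyte cluster came to 1.57-fold for Adamts1 and 1.71-fold for Adamts4 with a stricter cell filter, to 1.86-fold and 4.12-fold with called doublets kept, and to 9.20-fold and 9.63-fold at a finer clustering. At a coarser clustering, or with each library clustered alone, no pair of clusters was there to compare. Over the whole pericyte-like class, 103 cells had UMIs of both genes, 79 of them in cluster 18. Adamts4 was found in 34.4% of cells with Adamts1 and in 10.0% of cells without, and median depth was 5691 UMIs in cells with both and 2848 in cells with neither. Of endothelial-like cells with Adamts1, 12.7% had Adamts4, against 2.80% without. The part of depth in the joint detection was not tested in either class.

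In oligodendrocyte-like cells Adamts1 and Timp2 differed in opposite directions. Cluster 14 (574 cells, led by Srxn1, Klk9 and Cryab) had 161 CPM of Adamts1 and cluster 5 (1303 cells, led by Ptgds, Grb14 and Mog) had 61.0 CPM, 2.65-fold (2.43 to 2.89), where 13% of 12525 genes were at least 2-fold higher. Timp2 stood at 53.3 and 133 CPM, 2.49-fold lower in cluster 14 (2.23 to 2.78), where 10.6% of genes were at least 2-fold lower. Egr1 stood at 168 and 13.7 CPM and Atf3 at 136 and 7.48 CPM in these clusters. The part of the digestion in these Adamts1 and Timp2 differences was not tested.

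**Figure D4:**
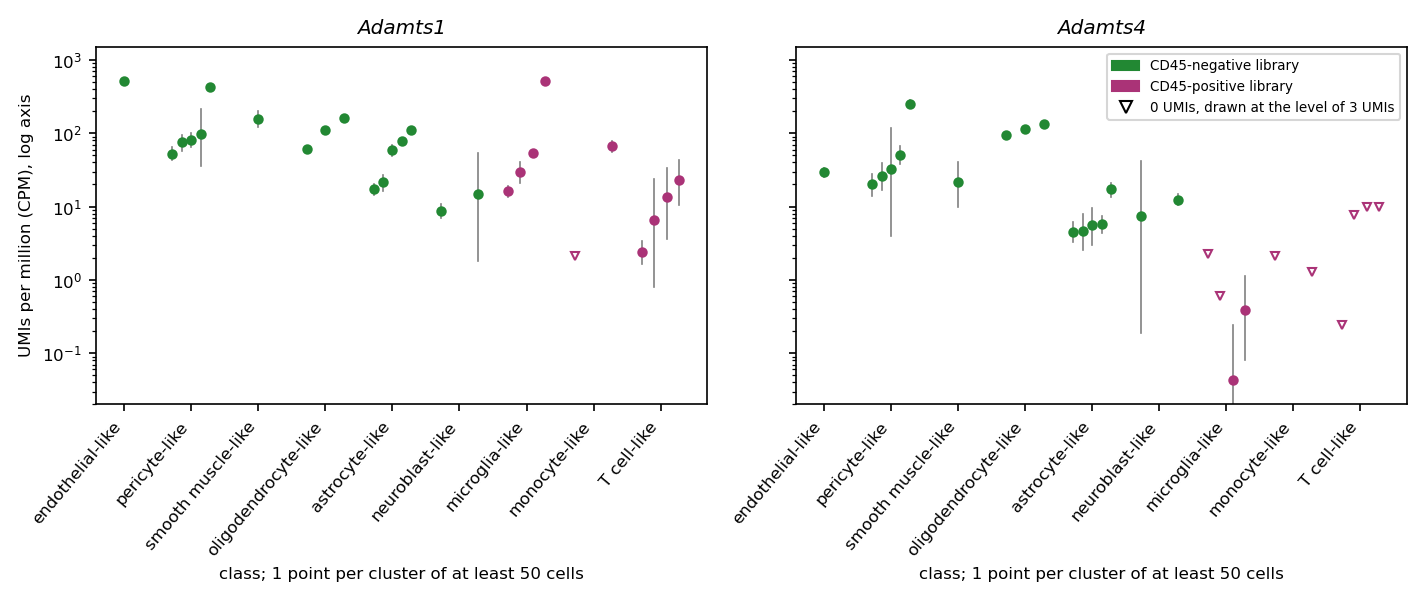
Level of Adamts1 (left) and Adamts4 (right) in clusters of at least 50 cells, grouped by cell class, on a log axis in CPM; bars are exact 95% Poisson intervals, green is the CD45-negative and purple the CD45-positive library, and open triangles mark 0 UMIs drawn at the level of 3 UMIs. One microglia-like cluster (521 CPM) lies at the endothelial-like level of Adamts1 (516 CPM), and 1 pericyte-like cluster stands above the other pericyte-like clusters for both genes.

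Timp2 (chr11:118301069-118355740, minus strand), which blocks Mmp2 and also serves its activation by Mmp14, had 4967 UMIs among CD45-negative and 11841 among CD45-positive cells, 60.1 and 160 CPM, 2.66-fold higher among CD45-positive cells (2.57 to 2.75). Microglia-like cells held 72.2% of the CD45-positive UMIs at 230 CPM (226 to 235), in 76.2% of cells and in 20.2% after thinning. Neutrophil-like cells stood at 294 CPM (251 to 343), but their clusters lay on either side of the microglia-like level, with 357 CPM in cluster 37 (117 of 165 UMIs), where microglia markers exceeded neutrophil markers, and 207 CPM in cluster 43. Fibroblast-like cells had 229 CPM, CD45-negative microglia-like cells 171 CPM, choroid plexus-like cells 126 CPM, monocyte-like cells 117 CPM and oligodendrocyte-like cells 103 CPM. T cell-like cells had 25.5 CPM (10.1% of cells, 2.75% after thinning) and neuroblast-like cells 23.0 CPM, but Timp2 is broadly expressed and these classes are no background for it. In the CD45-negative library 55% of its UMIs lay in oligodendrocyte-like cells, where 58.2% of cells with Adamts4 also had Timp2, against 38.4% of cells without. Median depth in these cells was 3560, 11109 and 12766 UMIs in clusters 10, 5 and 14, and its part in the joint detection was not tested.

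Timp3 (chr10:86300372-86349506, plus strand) was the most abundant member among CD45-negative cells, with 26901 UMIs at 326 CPM, against 242 UMIs at 3.27 CPM among CD45-positive cells, 99.6-fold higher (87.7 to 113). UMIs of a 3′ assay do not scale with transcript length, so this order among members is one of captured transcripts. Smooth muscle-like cells had 1730 CPM (1607 to 1861), fibroblast-like cells 1160 CPM, endothelial-like cells 918 CPM (895 to 941), pericyte-like cells 902 CPM and astrocyte-like cells 461 CPM (454 to 469). Endothelial-like and pericyte-like cells overlapped in their intervals, and the other steps of that order did not. A Timp3 UMI was found in 92.0% of smooth muscle-like cells (75.9% after thinning) and in 73.7% of astrocyte-like cells (33.0% after thinning), against 21.3% and 3.61% of neuroblast-like cells. Oligodendrocyte-like cells had 20.4 CPM and CD45-positive microglia-like cells 0.485 CPM. By number of UMIs, astrocyte-like cells held 49.8% of the library's Timp3, endothelial-like cells 22.4% and pericyte-like cells 17.5%. The gene lies opposite to Syn3 on the other strand.

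Astrocyte-like clusters, from the cells that the antibodies of the disease bind, differed in both inhibitors. Cluster 4 (1315 cells, led by Agt, Itih3 and Slc6a11) had 631 CPM of Timp3 and cluster 6 (1234 cells, led by Cspg5 and Clu) 423 CPM, while Timp2 stood at 19.4 and 54.6 CPM and Adamts1 at 17.1 and 78.9 CPM. Timp2 and Adamts1 were thus at least 2-fold lower in cluster 4, where 5.44% of 13520 genes were, and none was at least 2-fold higher, as 5.13% of genes were. Cluster 11 (861 cells, led by Crym, Tgm1 and Gfap, the filament gene of reactive astrocytes) had 192 CPM of Timp3 and 23.7 CPM of Mmp14, against 631 and 83.7 CPM in cluster 4. Both were at least 2-fold lower, where 29.5% of 12622 genes were, and the median depth of cluster 11 was 2218 UMIs against 6547 in cluster 4. Adamts1 (58.3 CPM) and Timp2 (61.7 CPM) were at least 2-fold higher in cluster 11 than in cluster 4, where 14.8% of genes were.

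**Figure D5:**
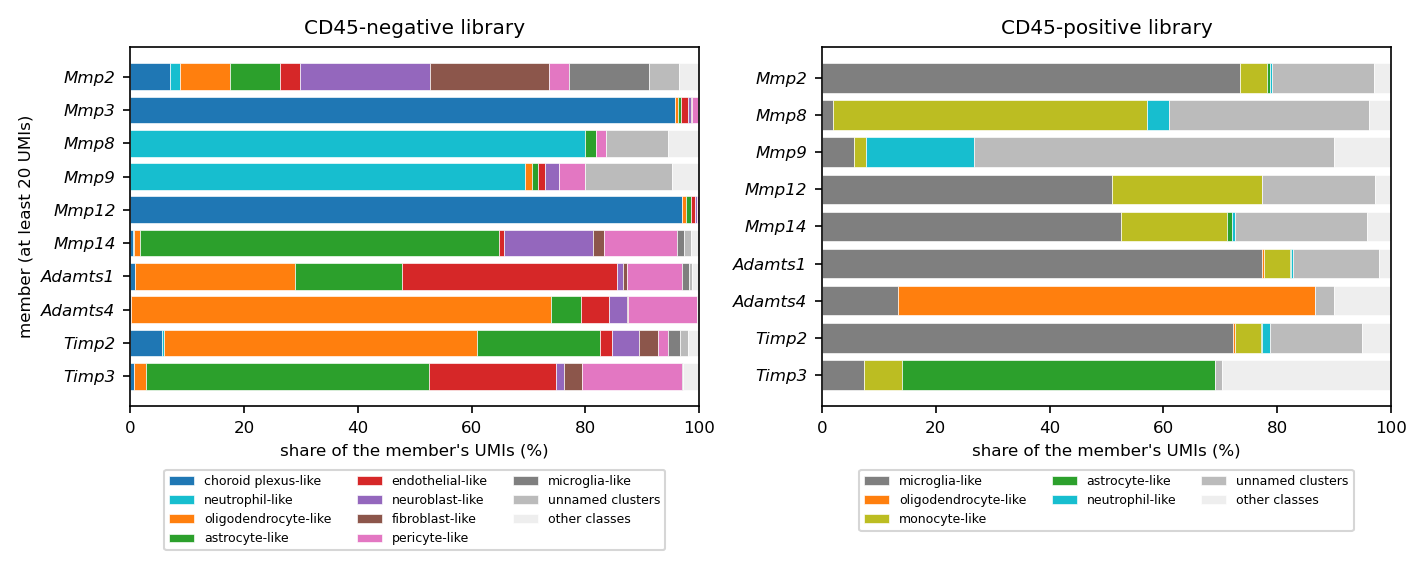
Share of each member's UMIs held by each cell class within the CD45-negative library (left) and the CD45-positive library (right), in percent of the member's UMIs in that library; members with under 20 UMIs in a library are left out, unnamed clusters are mid grey and classes holding little are pale. Mmp3 and Mmp12 are almost wholly choroid plexus-like on the left (95.8% and 97.1%), and Mmp9 is mostly in unnamed clusters on the right (63.4%).

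A pair of classes was large enough in both libraries to set the libraries side by side. For microglia-like cells (71 CD45-negative, 3141 CD45-positive), Mmp14 stood at 65.1 and 45.0 CPM and Adamts1 at 190 and 108 CPM. Timp2 stood at 171 and 230 CPM and Mmp2 at 13.0 and 15 CPM, and all of these were within 2-fold. The CD45-negative Adamts1 UMIs lay in 11 of the 71 cells. No measured member was at least 2-fold higher in the CD45-positive cells, as 4.28% of genes were. Timp3 was the only measured member at least 2-fold lower in the CD45-positive cells, where 10.4% of 12606 genes were, at 40.7 CPM (25 UMIs) against 0.485 CPM (18 UMIs), or 83.8-fold (43.9 to 163). The CD45-negative microglia-like cells also had 766 CPM of the astrocyte gene Slc1a2 and 148 CPM of Ttr, against 5.09 and 0.297 CPM, and the part of transcripts from other cells in the Timp3 difference was not tested. For astrocyte-like cells (5210 CD45-negative, 79 CD45-positive), Timp3 stood at 461 and 369 CPM, Mmp14 at 72.0 and 69.3 CPM and Timp2 at 36.9 and 44.3 CPM. No measured member was at least 2-fold higher in the CD45-positive cells, as 9.92% of genes were. Adamts1 was lower there, at 57.8 and 24.9 CPM (9 UMIs), a ratio of 0.432 (0.197 to 0.821), where 9.08% of 14441 genes were at least 2-fold lower. These CD45-positive cells carried 80.4 CPM of the microglia gene Tmem119 and 99.8 CPM of Ptprc, the gene of CD45, against 1.14 and 0.964 CPM.

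For each member, the genes with the most similar pattern were found by Pearson correlation of log2(CPM + 1) over the 18 class-by-library units of at least 50 cells, which share 2 libraries, and are given as a description. For Mmp3 these were Cox8b (r = 0.95), Smim22 and Sostdc1, and for Mmp12 Prr32 (r = 0.93), Tmem72 and Frmpd1os. For Mmp9 they were Mirt2 (r = 0.96), Asprv1 and Cstdc4, and for Mmp8 Gm5150 (r = 0.99), Klra2 and the clotting factor gene F10. The Mmp8 values rest on monocyte-like and neutrophil-like cells (85 and 6 UMIs), as every other unit stood at 0.191 CPM or lower. Mmp14 was most like Lrp1 (r = 0.95), the endocytic receptor that clears metalloproteinases, then Asph and Plxnb2, and Mmp2 was most like Abcb4 (r = 0.81), Npnt and Pf4. Adamts1 was most like Tspan4 (r = 0.92), Scamp1 and Ptprm, and Adamts4 most like Ano4 (r = 0.95), Ptprk and Sowaha. Timp3 followed Yap1 (r = 0.98), Tnfrsf19 and Fkbp10. Timp2, the most widely found member, was most like Prxl2b (r = 0.81), then Naglu and Aldh3b1. Timp2 and Mmp2 had the lowest top correlations of the members.

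Among the other genes of these families, few were on the CD45-positive side, where 16.5% of all genes were, against 40.9% on the CD45-negative side. Of 10 other Mmp genes measured, 7 were at least 2-fold higher among CD45-negative cells and 1, Mmp25, among CD45-positive cells (5.14-fold), with a median log2 ratio of -2.45 against -0.58 for all genes. Mmp15 was highest in pericyte-like cells (58.1 CPM), while Mmp19 in fibroblast-like (43.1 CPM) and monocyte-like cells (36.1 CPM), and Mmp25 in dendritic-like (39.8 CPM) and type 2 innate lymphoid-like cells (30.9 CPM), had overlapping intervals. Of 16 other Adamts genes 13 were on the CD45-negative side and 1, Adamts16, on the CD45-positive side with 162 UMIs against 6. Adamts9, which like Adamts1 cuts versican, was highest in endothelial-like cells (342 CPM), and Adamts5, an aggrecanase like Adamts4, in fibroblast-like cells (83.5 CPM). Both other inhibitors were on the CD45-negative side. Timp1 was led by pericyte-like (136 CPM) and fibroblast-like cells (106 CPM), whose intervals overlapped, and Timp4 was highest in astrocyte-like cells (444 CPM), close to the 461 CPM of Timp3 there.

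Substrates and regulators of the members were counted in the same way, beside 40.9% of all genes on the CD45-negative and 16.5% on the CD45-positive side. Of 9 lecticans and partners, 9 were at least 2-fold higher among CD45-negative cells. Brevican (Bcan), cut by Adamts4, was highest in astrocyte-like cells (952 CPM), versican (Vcan), cut by Adamts1, in neuroblast-like cells (265 CPM), and Hapln2 in oligodendrocyte-like cells (265 CPM), the class where Adamts4 was highest. Of 15 basement membrane genes 13 were on the CD45-negative side, with Fn1 (1474 CPM) and Col4a1 (991 CPM) highest in endothelial-like cells, the class where Adamts1 was highest, and Dag1, the matrix receptor dystroglycan, was led by smooth muscle-like (431 CPM) and pericyte-like cells (363 CPM), whose intervals overlapped. Of 20 activators, anchors and inhibitors 10 were on the CD45-negative and 3 on the CD45-positive side, shares near those of all genes. Among these, Bsg, the metalloproteinase inducer basigin, was highest in endothelial-like cells (6037 CPM), and Lrp1 in fibroblast-like cells (607 CPM). Serpine2 stood at 629 CPM in CD45-positive and 559 CPM in CD45-negative astrocyte-like cells, with overlapping intervals. Of 8 membrane-bound Adam sheddases, relatives of the Adamts genes, 4 were on the CD45-positive side and 1 on the CD45-negative side. Adam10 stood at 193 CPM in CD45-positive microglia-like and 185 CPM in endothelial-like cells, with overlapping intervals. Adam15 reached 229 CPM (217 to 240) in endothelial-like cells. CD45-positive microglia-like cells followed at 207 CPM (203 to 212), with no overlap. Adam17, which Timp3 blocks, stood at 127 CPM in neutrophil-like cells (71 UMIs) and 119 CPM in CD45-positive microglia-like cells, with overlapping intervals.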

How the data were processed

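Single-cell RNA was measured in 2 libraries, 1 per group, with a droplet 3′ assay, which counts transcript ends and does not tell isoforms apart. The authors deposited UMI counts per gene and cell, not normalised as far as the values show; Cell Ranger 6.1.2 and the build mm10 are named per the submitters' processing notes. Which annotation was used, the cell-calling settings and any earlier doublet removal could not be read from the labels or headers. Genes on overlapping strands, as Timp3 and Syn3, could share reads where strand was not used.

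Barcodes with at least 500 UMIs, 200 genes and at most 20% mitochondrial UMIs were kept. Scrublet calls, 876 (6.03%) and 177 barcodes (2.04%), were removed. Called rates stayed below the assumed 11.6% and 6.93%, so doublets may remain. Libraries were clustered together in scanpy 1.11.5 (2000 variable genes, 30 components, 15 neighbours, Leiden resolution 1 with leidenalg 0.10.2; Python 3.11.15), with all members and listed genes left out, and clusters with markers of several classes were split again at resolution 0.5 in up to 2 rounds. Names needed 3 markers in at least 20% of cells. Clusters whose leading genes or depth went against the name stayed unnamed. Summed counts gave CPM with exact 95% Poisson intervals, ratios were given exact conditional binomial intervals, and detection shares exact Clopper-Pearson ones, also after thinning to 1000 UMIs. Shares are left without a printed interval where the CPM interval stands beside them. Genes with at least 20 UMIs were called measured, and a gene at 0 was set to 3 UMIs. Of the code, only the ratio between the libraries and its interval were tested on simulated Poisson counts, which lack the crowding of UMIs into single cells. Scaling alternatives used edgeR 4.0.16 for TMM factors only, and no model was fitted.

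The members and lists were chosen with earlier results of these data known. The numbers of the naming rule and the second split round were set after the clusters and their markers had been seen. Cluster pairs, reference genes, motifs and the showing of clusters of 15 to 49 cells were chosen after values had been seen. All 10 members are named. Other family genes, the 3 highest genes of each list by summed CPM, and the 3 genes most like each member follow a set rule, and any further gene was picked after its values were seen. Promoter entries matched for Mmp3, Mmp8, Mmp12, Mmp14, Adamts1, Timp2 and Timp3, and Mmp2, Mmp9 and Adamts4 had none in the table used.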

Additional observations from a re-analysis of the deposited data

Results flagged for a closer look

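In small groups of cells outside the class comparisons, members stood above the level that 3 UMIs would give. Mmp8 at 312 CPM and Mmp9 at 419 CPM were measured in 17 neutrophil-like cells of the CD45-negative library, a cell type that carries CD45. Adamts4 at 80.5 CPM was measured in 38 oligodendrocyte-like cells of the CD45-positive library, beside 111 CPM in the CD45-negative oligodendrocyte-like cells.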

How the results depend on the processing

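No paired analysis was possible because each group has 1 library and the labels give no shared replicate numbers; for the same reason no library could be left out. The counts of members at least 2-fold higher in either library, and the shares and levels of Mmp3 and Mmp12 in choroid plexus-like cells, kept their size under every alternative run (Mmp3 1353 to 1380 CPM, Mmp12 400 to 410 CPM). Scaling by TMM or by the median of ratios moved all log2 ratios up by 0.47 or 0.52: Adamts1 went from -0.64 to -0.17 or -0.12 and Mmp14 from 0.10 to 0.56 or 0.62, and genes of the regulator and substrate lists at least 2-fold higher among CD45-positive cells went from 7 to 12 and 13. With each library clustered alone, 4 members rather than 7 had at least 50% of their CD45-negative UMIs in 1 class, 2 rather than 1 were at least 2-fold lower in CD45-positive astrocyte-like cells, and 3 rather than 6 of the member and class pairs compared (an alternative chosen after seeing the data) kept a 2-fold range over clusters. The stricter cell filter also left 3 such pairs. With no cell filter 2 members rather than 1 were at least 2-fold lower in CD45-positive microglia-like cells, and at Leiden resolution 0.5 1 member rather than 0 was at least 2-fold higher in CD45-positive astrocyte-like cells. The log2 ratio of Mmp14 between astrocyte-like cells changed sign, from -0.05 to 0.17 with no cell filter and 0.035 at resolution 0.5, and that of Mmp12 between microglia-like cells from -0.16 to 0.0075 at resolution 0.5. The Mmp12 share of CD45-positive UMIs in microglia-like cells, 50.9%, was 27.4% with no cell filter, 31.1% with doublets kept and 26.4% with libraries clustered alone. The causes were not tested, apart from the scaling shift. Of 336 single member values recomputed, 27 moved by more than 1.5 times. These values leave out the folds between clusters of a class. They include the ratios under the scaling alternatives, whose uniform shift is smaller than 1.5 times. Members with under 20 UMIs in a class allow no order, and 1 library per group allows no statement about other mice.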
